A study of Mus musculus with 38 samples.

Results

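The E2F and RB family was described here as 10 genes of the 21705 in the deposited table: E2f1, E2f2, E2f3, E2f4, E2f5, E2f6, E2f7, E2f8, Rb1 and Rbl1. They were taken by gene symbol, and no member had to pass a test to be included. E2F proteins bind DNA upstream of genes for DNA replication and cell division. Pocket proteins, encoded by Rb1, Rbl1 and Rbl2, hold E2Fs in check until cyclin-dependent kinases phosphorylate them. MYC raises cyclin and E2F transcription in many cell types, and the Ink4a product of Cdkn2a inhibits the kinases that act on RB, so the engineered genes of these mice lie on the route that controls the family.

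The study made mouse kidney tumours by activating a MYC transgene, alone or together with deletion of Vhl and of Ink4a/Arf. The Ksp-cadherin promoter, active in renal epithelium, drove the doxycycline (Dox) dependent transactivator that turns on the MYC transgene, and the same promoter drove the tamoxifen-inducible Cre that deletes Vhl. Ink4a/Arf was inactivated in the germline. RNA came from cell lines, each grown from 1 tumour, and from tumours and normal kidneys.

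MYC-2983 cells carried the MYC transgene alone. VM cells also lacked Vhl, and VIM cells lacked Vhl and Ink4a/Arf; the names VM-3055 and VIM-3039 carry line numbers taken from the publication, since the labels give the genotype only. Each line was collected 24 hours after plating, with 2 µg/ml Dox (MYC on) in 4 replicates and without Dox (MYC off) in 4 replicates. There were 3 libraries of MYC tumours from 2 animals (2917 once, 2983 in both others), 3 of VM tumours (animals 3115, 3055 and 2459) and 3 of VIM tumours (3237, 3233 and 3130), all from mice kept on Dox. The 5 normal kidneys came from wild type mice given vehicle, so Dox and genotype cannot be told apart in tumour comparisons. Levels are RSEM estimates scaled by the authors to an upper quartile of 1000 in each library, called units here. A gene passed when limma's adjusted p was under 0.05 and the change was more than 2-fold. Nothing in the labels says that the 4 replicates of a condition were separate cultures, so each p measures spread between these samples, and each line stands for 1 tumour. Replicates of a cell group varied 1.4 to 3.31 times as much as counting alone gives (median over genes), and tumours of a kind 25.4 to 28 times. Bulk RNA cannot separate fewer expressing cells from less RNA per cell.

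The engineered genes served as a check of the labels. Myc averaged 676 units with Dox and 1831 without in MYC-2983 cells, 384 and 1364 in VM cells, and 381 and 1479 in VIM cells, so Myc was lower with the transgene on (log2 change −1.44 at adjusted p 3.17e-17, −1.83 at adjusted p 2.22e-14 and −1.96 at adjusted p 2.51e-18). Whether reads of the transgene count toward Myc is not stated. Myc RNA thus did not bear out the Dox labels. Immunoblots in the publication show that MYC protein depended on Dox in lines MYC-2983, VM-3055 and VIM-3039. In tissue Myc read 208, 438 and 389.8 units in MYC tumours, 409, 462 and 802 in VM tumours and 397, 476 and 339.6 in VIM tumours, against 40.7 to 119 in the 5 normal kidneys. Vhl read 433 to 543 units in MYC-2983 cells, 10.3 to 38.8 in VM cells and 8.32 to 24.9 in VIM cells. Vhl read 40.2 to 79.9 units in VM tumours and 219 to 312 in VIM tumours, against 612 to 772 in normal kidney and 468 to 559.7 in MYC tumours. Cdkn2a, whose value joins Ink4a and Arf, read 24.9 to 40.8 units in VIM cells, 3473 to 5701 in VM cells and 3056 to 3744 in MYC-2983 cells. Cdkn2a differed between the libraries of animal 2983 (2872 and 59.3 units) and read 108 in animal 2917. It read 3392 to 4347 units in VM tumours, 30.1 to 95.5 in VIM tumours and at most 3.79 in normal kidney.

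Members with different exonic lengths can only be compared per kb. E2f4 had the highest level per kb of the 10 members in all 6 cell groups, from 455 to 760.5 units per kb, and in MYC tumours at 395.5. E2f5 had the highest mean in VM tumours (442 units per kb, SD 64.9), VIM tumours (399, SD 101) and normal kidney (485, SD 71.1). In tumours the order of E2f4 and E2f5 was within the spread of the libraries. E2f4 was at 406 (SD 90.5) in VM tumours and 319 (SD 80.1) in VIM tumours. E2f5 was at 353 (SD 60.4) in MYC tumours. In normal kidney E2f4 followed at 198.5 units per kb, then E2f6 at 195, Rb1 at 153, Rbl1 at 43.3, E2f3 at 41.1, E2f1 at 15.6, E2f2 at 15.1, E2f8 at 1.25 and E2f7 at 0.391. Some neighbours in that order differed by less than their spread, such as E2f4 and E2f6 (SD 10.3 and 29.8). The kidney thus held mostly the RNAs of E2f4, E2f5, E2f6 and Rb1. It held little of the activators (E2f1 to E2f3) or of the atypical pair (E2f7 and E2f8). Lowest per kb was Rb1 in MYC-2983 cells with Dox (48.3 units per kb), E2f2 in the 5 other cell groups (12.04 to 49.04) and E2f7 in the 4 tissue groups.

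Ordered by group mean, 8 of 10 members were highest in a cell group with Dox, the exceptions being E2f5 and Rb1, and 5 of these (E2f1, E2f3, E2f4, E2f7 and E2f8) were lowest in normal kidney. E2f1 ran from 929 units in VM cells with Dox to 49.3 in normal kidney, with 5 of 9 neighbours apart. Apart means that the values of neighbouring groups did not overlap, however small the gap. For E2f1 the lowest VIM library with Dox (654.2 units) and the highest VM library without Dox (648.7) counted as apart. These counts were not made over all genes, so they are a description only. E2f7 (648 to 3.52 units) and E2f8 (697 to 6.81) each had 5 of 9 neighbours apart, and E2f4 (1515 to 395) also had 5. E2f3 (1182 to 197) had 3. E2f5 and Rb1 ran the other way: E2f5 was highest in normal kidney at 848 units and lowest in VIM cells without Dox at 157, with 4 neighbours apart. Rb1 was highest in normal kidney at 921 and lowest in MYC-2983 cells with Dox at 291, with 2 apart. E2f2 (372 in MYC-2983 cells with Dox to 58.8 in VIM cells without) and Rbl1 (946 in VM cells with Dox to 195 in VIM tumours) had 2 apart each. E2f6 was the flattest, from 644 units in MYC-2983 cells with Dox to 435 in MYC tumours, with 0 of 9 neighbours apart.

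**Figure D1:**
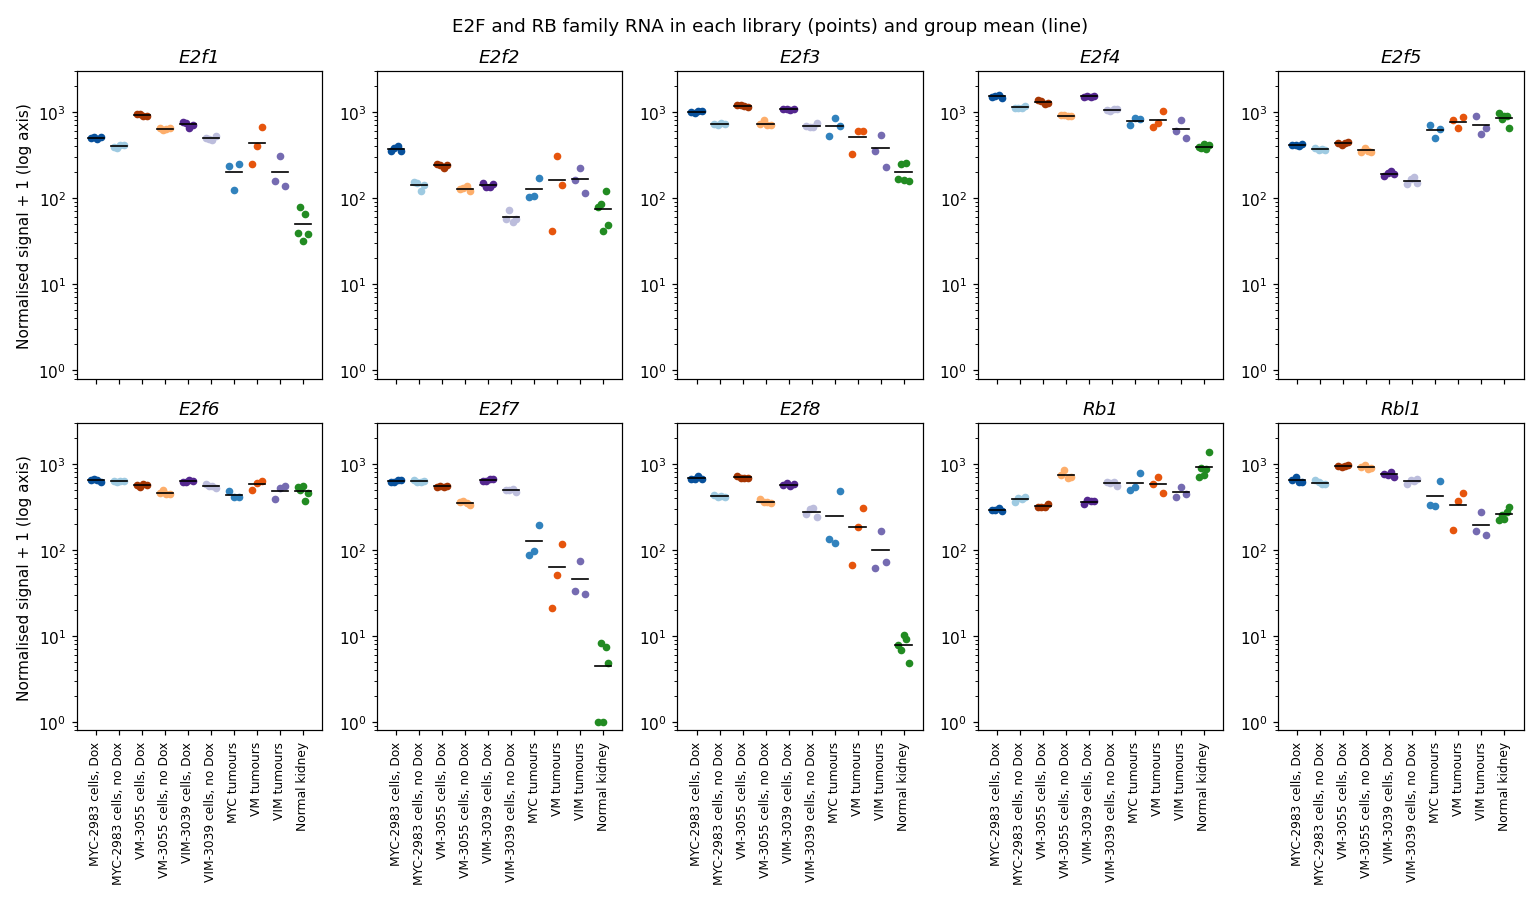
Level of each member in every library (points; normalised signal + 1, log axis) and group mean (black line) in the 6 cell groups, 3 tumour groups and normal kidney. E2f7 and E2f8 span the widest range, from means of 3.52 and 6.81 in normal kidney to 648 in VIM cells with Dox and 697 in VM cells with Dox.

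Comparing cells with and without Dox asks how the family responds to its upstream regulator within 1 line. The publication derived and cultured the lines in medium with Dox, and describes the contrast in VM and VIM cells as Dox removal. Changes are given as Dox minus no Dox, so a higher level with Dox may be a fall after its withdrawal. E2F1 to E2F3 are the activators: free of RB they recruit acetyltransferases to replication genes, and each acts on the promoters of the others. MYC binds near the promoters of several of them in other systems. Dox itself was not given to cells without the transgene, so MYC and Dox cannot be told apart. In MYC-2983 cells 1 of 10 members passed, as did 19.5% of the 15104 genes tested (4.49% higher, 15% lower). VM cells gave 1 member of 10 against 24.8% of 14319 genes (5.92% higher, 18.9% lower), and VIM cells 2 of 10 against 24.3% of 13998 (7.67% higher, 16.6% lower). At an adjusted p under 0.05 without the size threshold the members were 7, 9 and 10, against 75.5%, 73.8% and 75.3% of genes. Those same counts of members had no overlap between the replicates of the conditions, nor did 70.5%, 68.1% and 70.0% of genes. In each line 9 of 10 members had a change above 0 with Dox, and that of Rb1 was below 0. E2f6, E2f7 and Rbl1 in MYC-2983 cells and Rbl1 in VM cells had a limma adjusted p above 0.05. These signs held under every other scaling and setting. They also held with any replicate left out, except for E2f7 in MYC-2983 cells, whose change of 0.01 fell to 0. The other scalings raised the median gene in each line, so they were no check of signs above 0. The scaling matters for size: the median over genes of at least 50 units was −0.06, −0.17 and −0.09 in the 3 lines, and it moved to 0.06, 0.04 and 0.06 under trimmed-mean scaling, so changes relative to that median are given beside the main values.

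E2f2 had the largest increase of any member in MYC-2983 and VIM cells. In MYC-2983 cells it read 350.5, 383, 406 and 347 units with Dox and 153, 149, 119.8 and 142 without. VM cells gave 249.8, 243, 225 and 240.4 units with Dox and 126, 128, 136 and 120 without. VIM cells gave 147, 132, 134 and 145 units with Dox and 55.99, 72.5, 51.02 and 55.6 without. All 4 Dox replicates lay above all 4 others in each line. The log2 change was 1.4 (adjusted p 5.88e-12) in MYC-2983 cells, 1.25 (adjusted p 7.01e-09) in VIM cells and 0.9 (adjusted p 2e-08) in VM cells, or 1.45, 1.33 and 1.07 relative to the median gene. E2f2 in VM cells was thus just under the size threshold, and it passed under trimmed-mean scaling (1.1) and quantile normalization (1.23). The difference in response between VM and MYC-2983 cells was −0.5 (adjusted p 0.0029), and that between VIM and MYC-2983 cells −0.15 (adjusted p 0.389). Even so, E2f2 stayed among the scarcest members per kb.

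E2f1 was higher with Dox in each line, by less than 2-fold. MYC-2983 cells gave 499.8, 517, 478 and 512 units with Dox and 390.4, 379.7, 414 and 410.2 without. VM cells gave 949.5, 955, 902 and 908 units with Dox and 648, 608, 637 and 649 without. VIM cells gave 765, 734, 654 and 712 units with Dox and 494, 482, 474 and 521 without. Every Dox replicate was above every replicate without Dox in the same line, and VM cells without Dox still read more E2f1 than MYC-2983 cells with it. The log2 changes were 0.33 (adjusted p 1.26e-06), 0.55 (adjusted p 1.02e-08) and 0.54 (adjusted p 4.36e-09) in MYC-2983, VM and VIM cells.

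E2f3 was higher with Dox in each line, by less than 2-fold. In MYC-2983 cells it read 994, 959.8, 1019 and 1015 units with Dox and 730.3, 708, 742 and 730.1 without. VM cells gave 1207, 1215, 1176 and 1130 units with Dox and 719, 797, 699 and 703 without. VIM cells gave 1079, 1068, 1056 and 1072 units with Dox and 692, 672, 669 and 742 without. The 3 groups without Dox lay close together and the Dox groups stood clear above them. Log2 changes were 0.45 (adjusted p 2.26e-10), 0.7 (adjusted p 1e-09) and 0.62 (adjusted p 7.19e-12), or 0.51, 0.86 and 0.71 relative to the median gene. The E2f3 value joins the transcripts that encode its long and short proteins, so it does not separate them.

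E2F4 and E2F5 lack a cyclin-binding domain and mostly repress targets in resting cells, in complexes with pocket proteins. E2f4 read 1484, 1537, 1579 and 1451 units with Dox and 1118, 1103, 1124 and 1168 without in MYC-2983 cells. It read 1393, 1328, 1241 and 1263 units with Dox and 919, 913, 908 and 889 without in VM cells. It read 1491, 1511, 1507 and 1551 units with Dox and 1049, 1036, 1073 and 1070 without in VIM cells. No replicate with Dox overlapped one without in any line, and the log2 changes were 0.42 (adjusted p 5.94e-10), 0.52 (adjusted p 1.4e-08) and 0.52 (adjusted p 5.89e-12). Differences between lines in the E2f4 change were −0.01 (VIM minus VM), 0.1 (VM minus MYC-2983) and 0.1 (VIM minus MYC-2983), none with an adjusted p under 0.05, though the last pair moved to 0.19 and 0.17, with adjusted p under 0.05, under trimmed-mean scaling, and the middle one to 0.14 under quantile normalization.

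E2f5 set VIM cells apart at either Dox state. MYC-2983 cells gave 412, 410, 404 and 420.3 units with Dox and 376, 363, 366 and 358 without. VM cells gave 429, 413, 430.4 and 448 units with Dox and 345, 385, 350.4 and 343 without. VIM cells gave 181, 194, 203 and 187 units with Dox and 143, 164, 172 and 147 without. The Dox effect on E2f5 was small and without overlap: 0.17 (adjusted p 0.000945), 0.27 (adjusted p 0.000655) and 0.29 (adjusted p 0.00484). E2F6 lacks the domain that pocket proteins bind and represses through a Polycomb complex. E2f6 averaged 644 and 625 units with and without Dox in MYC-2983 cells, 563 and 458 in VM cells, and 624 and 549 in VIM cells. Its log2 changes were 0.04 (adjusted p 0.279) with overlapping replicates, 0.3 (adjusted p 0.00016) and 0.18 (adjusted p 0.00095), the last pair without overlap.

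E2F7 and E2F8 bind DNA without a dimerization partner and turn E2F targets down late in S phase, and both are E2F targets themselves. E2f8 read 668, 661, 712 and 659.9 units with Dox and 437, 406, 419.6 and 411 without in MYC-2983 cells. In VM cells it read 723, 691, 690.2 and 682 units with Dox and 385, 363, 357 and 348 without. In VIM cells it read 560.2, 593, 557 and 577 units with Dox and 263, 295, 309 and 239.7 without. The Dox and no-Dox replicates were far apart in all 3 lines, with log2 changes of 0.69 (adjusted p 1.23e-11), 0.94 (adjusted p 3.82e-11) and 1.05 (adjusted p 5.88e-12). E2f8 passed in VIM cells, but with the fourth VIM replicate without Dox left out the change was 0.98 and it did not. It passed in VM cells under trimmed-mean scaling (1.14) and quantile normalization (1.09).

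E2f7 parted from E2f8 in 1 line. MYC-2983 cells gave 607, 617, 652 and 652 units with Dox and 639, 619, 615 and 633 without. VM cells gave 543, 553, 536 and 557 units with Dox and 359.8, 366, 351 and 328 without. VIM cells gave 638, 632, 663 and 659 units with Dox and 494, 499, 513 and 474 without. Replicates overlapped in MYC-2983 cells, where E2f7 stood high with or without Dox, and were apart in both other lines. The log2 changes were 0.01 (adjusted p 0.775, 95% interval −0.06 to 0.09), 0.64 (adjusted p 1.41e-08) and 0.39 (adjusted p 1.02e-07). The response in VM cells exceeded that in MYC-2983 cells by 0.63 (adjusted p 6.06e-10).

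Pocket proteins restrain the E2Fs: RB mainly the activators, and p107, the product of Rbl1, mainly E2F4. Rb1 read 292, 289, 302 and 279 units with Dox and 362, 403, 390.4 and 412 without in MYC-2983 cells. In VM cells it read 313, 316, 314 and 344 units with Dox and 737, 842, 674 and 705 without. In VIM cells it read 337, 375, 366 and 371 units with Dox and 619, 592, 615 and 548 without. Rb1 was lower in every Dox replicate than in any replicate without Dox of the same line, and the lines were closer together with Dox than without. The log2 changes were −0.43 (adjusted p 3.4e-07), −1.19 (adjusted p 2.67e-11) and −0.71 (adjusted p 1.13e-10), or −0.37, −1.03 and −0.62 relative to the median gene. Rb1 fell past the size threshold in VM cells, except under trimmed-mean scaling (−0.99). VM and MYC-2983 cells differed in the Rb1 response by −0.77 (adjusted p 2.17e-08).

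Rcbtb2 and Lpar6 overlap the Rb1 gene on chromosome 14, on the other strand. How much of either gene lies within Rb1 is not given here. The libraries were made with a stranded kit, but whether the counting used strand is not stated. To what extent reads of Rcbtb2 and Lpar6 count toward Rb1 thus cannot be told. Rcbtb2 averaged 544 units with Dox and 604 without in VM cells, 312 and 339.9 in VIM cells, and 541 and 693 in MYC-2983 cells. Lpar6 averaged 430.3 and 548 in VM cells, 299.5 and 269.8 in VIM cells, and 241 and 361 in MYC-2983 cells. By mean Rcbtb2 was lower with Dox in all 3 lines and Lpar6 in 2 of 3, by less than Rb1 in VM cells. In VIM cells the Rcbtb2 values overlapped, at 302.9 to 319.6 units with Dox and 303.2 to 360.8 without. In MYC-2983 cells the difference in mean Lpar6 was proportionally larger than that in Rb1. The Dox changes of Rcbtb2 and Lpar6 were not tested. Rbl1 read 652, 696, 619.8 and 607 units with Dox and 642, 608, 584 and 579 without in MYC-2983 cells. In VM cells Rbl1 averaged 946 and 909 units, and in VIM cells 753 and 632. Its changes were 0.09 (adjusted p 0.0723) and 0.06 (adjusted p 0.272), both with overlap, and 0.25 (adjusted p 8.12e-05) without. The third pocket gene, Rbl2, was lower by less than 2-fold: −0.08 (adjusted p 0.0531) in MYC-2983 cells, −0.36 (adjusted p 7.75e-05) in VM cells and −0.4 (adjusted p 2.53e-07) in VIM cells.

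**Figure D2:**
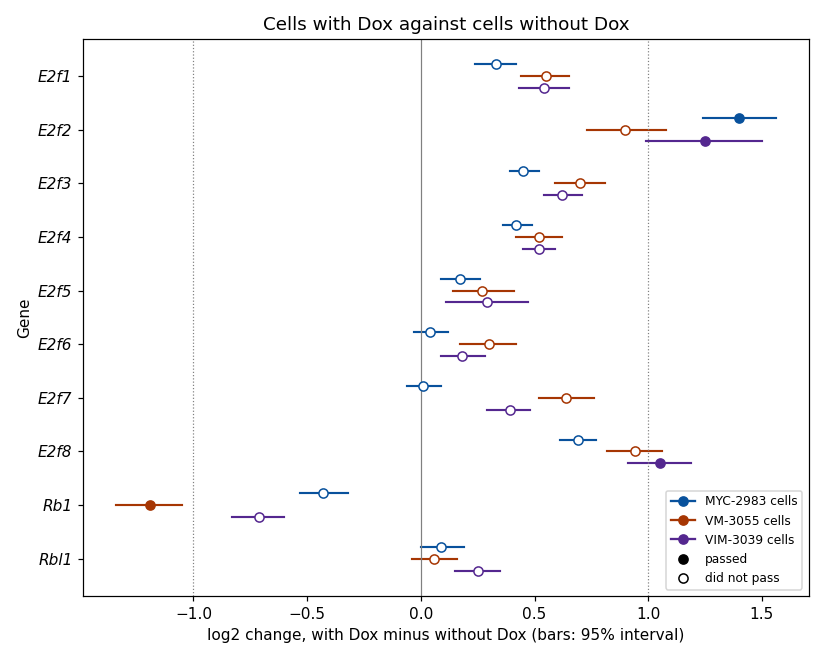
Change of each member with Dox (log2, Dox minus no Dox, points; bars, 95% interval) in the 3 lines, with 4 replicates a group. Filled points passed: E2f2 in MYC-2983 cells (1.4) and VIM cells (1.25), E2f8 in VIM cells (1.05) and Rb1 in VM cells (−1.19).

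Lines that lack Vhl, or Vhl and Ink4a/Arf, may respond to MYC differently, and the difference itself was tested in 1 model of all 24 cell libraries. VHL loss stabilizes hypoxia-inducible factors, which can oppose or assist MYC on cell-cycle genes. Loss of Ink4a frees the kinases that phosphorylate RB. Each genotype is 1 line, so genotype and line cannot be told apart. A response differed when its adjusted p was under 0.05, with no size threshold. VM and MYC-2983 cells differed in 7 of 10 members, against 45% of the 16092 genes tested. VIM and MYC-2983 cells differed in 5 of 10 against 42.7%. VIM and VM cells differed in 4 of 10 against 35.6%.

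The members that responded more strongly in VM than in MYC-2983 cells were E2f7 (0.63 at adjusted p 6.06e-10), E2f8 (0.25 at adjusted p 0.0119), E2f6 (0.25 at adjusted p 0.000749), E2f3 (0.24 at adjusted p 0.00084) and E2f1 (0.21 at adjusted p 0.00767). E2f2 responded less (−0.5 at adjusted p 0.0029) and the Rb1 decrease was larger (−0.77 at adjusted p 2.17e-08). Between VIM and MYC-2983 cells the differing members were E2f7 (0.38 at adjusted p 3.63e-06), E2f8 (0.36 at adjusted p 0.000497), E2f1 (0.21 at adjusted p 0.0105), E2f3 (0.17 at adjusted p 0.016) and Rb1 (−0.28 at adjusted p 0.0073). E2f6 was near the threshold (0.14 at adjusted p 0.0507). Under trimmed-mean scaling E2f4, E2f5, E2f6 and Rbl1 joined them, to 9 of 10, while E2f1 missed it under quantile normalization (0.15). E2f6 also differed with a pseudocount of 0.1 or 10, with an average of 10 units or more, and with no filter. E2f5 differed under quantile normalization too, and Rbl1 with an average of 10 units or more. With 1 replicate left out E2f6 differed in 4 of 16 fits and Rbl1 in 5 of 16. Rbl1 in the VM and MYC-2983 pair changed sign with the scaling, from −0.03 to 0.05.

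VIM cells differed from VM cells in Rb1, whose decrease was smaller (0.48 at adjusted p 4.62e-05), E2f7, whose increase was smaller (−0.25 at adjusted p 0.000827), Rbl1 (0.19 at adjusted p 0.0235) and E2f2 (0.34 at adjusted p 0.0418). The Rb1 and E2f7 differences held in every alternative run. E2f2 and Rbl1 did not. With a replicate block, fitted to VM and VIM cells alone, their adjusted p were 0.124 and 0.0653. Without the block, in those same cells, E2f2 was at 0.0701 and Rbl1 still differed, and with the first VIM replicate without Dox left out 2 of 10 members differed. E2f2 also missed the threshold under quantile normalization (0.35), with a pseudocount of 10 (0.27), with no expression filter (adjusted p 0.055), by voom (adjusted p 0.0935), and with most single replicates left out (0.28 to 0.35). Rbl1 missed it under quantile normalization (0.13 at adjusted p 0.135) and with any of 3 single replicates left out. E2f6, which did not differ in the main analysis, did so under quantile normalization (−0.2 at adjusted p 0.0052) and without the second VM replicate lacking Dox (−0.15 at adjusted p 0.0354). The E2f1, E2f4 and E2f5 differences were −0.01, −0.01 and 0.02, and each changed sign when single replicates were left out.

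VIM and VM cells differ by Ink4a/Arf in design, and each is 1 line from 1 tumour, so any difference may belong to the line. CDK4 and CDK6 act on RB without the Ink4a brake, and Arf loss stabilizes MDM2 and lowers p53. With Dox 1 of 10 members passed, E2f5, against 19.1% of 14060 genes (9.69% higher, 9.45% lower in VIM cells). Without Dox 2 of 10 passed, E2f5 and E2f2, against 21.7% of 14461 genes (9.21% higher, 12.5% lower). E2f5 was lower in VIM cells by log2 −1.17 (adjusted p 4.98e-11) with Dox and −1.18 (adjusted p 1.75e-09) without, and every VIM value was under every VM value. E2f2 was −1.12 (adjusted p 8.31e-07) without Dox and −0.77 (adjusted p 1.33e-07) with Dox, without overlap in either.

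All 10 members had an adjusted p under 0.05 with Dox, as did 67.5% of genes, and 9 of 10 had no overlap, Rb1 being the exception, against 61.3% of genes. E2f1 (−0.38 at adjusted p 2.74e-06), Rbl1 (−0.33 at adjusted p 2.87e-06), E2f8 (−0.28 at adjusted p 1.46e-05) and E2f3 (−0.14 at adjusted p 0.00163) were lower in VIM cells. E2f7 (0.24 at adjusted p 6.43e-05), E2f4 (0.21 at adjusted p 0.000114), E2f6 (0.15 at adjusted p 0.00645) and Rb1 (0.17 at adjusted p 0.0165) were higher, each less than 2-fold. Rb1 was the member whose side depended on Dox: without it VIM cells were lower (−0.31 at adjusted p 0.000595). E2f3 overlapped without Dox (−0.07 at adjusted p 0.275). E2f7 (0.49 at adjusted p 1.45e-06) and Rbl1 (−0.52 at adjusted p 1.63e-07) differed most among the rest without Dox.

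Partners decide where the family acts on DNA. DP proteins dimerize with E2F1 to E2F6, and the MuvB core joins pocket proteins to repress targets, or B-MYB and FOXM1 to activate late ones. Of 10 partner and MuvB genes, 1 passed in MYC-2983 cells, 2 in VM cells and 2 in VIM cells with Dox, all higher. Of all genes 19.5%, 24.8% and 24.3% passed, in either direction. Mybl2, itself an E2F target, was the 1 shared by the lines: 1143 units with Dox and 497 without in MYC-2983 cells (1.2 at adjusted p 1.99e-16), 1822 and 339.6 in VM cells (2.42 at adjusted p 1.33e-16), and 1472 and 328 in VIM cells (2.16 at adjusted p 1.27e-19). Tfdp1, encoding DP1, passed in VM cells (2878 against 1235 units, 1.22 at adjusted p 2.54e-13) and VIM cells (3498 against 1532, 1.19 at adjusted p 3.43e-16). Between VIM and VM cells 0 of 10 partners passed by limma with or without Dox, with 6 at an unadjusted p under 0.05 in both.

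Cyclins D and E with their kinases inactivate pocket proteins, and INK4 and CIP proteins hold the kinases back. Of 16 such genes 3 passed in MYC-2983 cells (1 higher, 2 lower), 6 in VM cells (3 and 3) and 4 in VIM cells (3 and 1). Of all genes 19.5%, 24.8% and 24.3% passed. Ccne1, an E2F target, rose in each line: 1.24 (adjusted p 4.38e-16), 1.8 (adjusted p 3.39e-14) and 1.56 (adjusted p 1.29e-18) in MYC-2983, VM and VIM cells. Ccne2 rose in VM cells (1.8 at adjusted p 3.76e-13) and VIM cells (1.75 at adjusted p 4.66e-18), and Skp2 in VIM cells (1.39 at adjusted p 1.76e-15). Cdkn2b fell in MYC-2983 cells (−1.49 at adjusted p 1.01e-13) and VM cells (−1.46 at adjusted p 2.26e-12), Cdkn1c in MYC-2983 cells (−1.14 at adjusted p 1.79e-07) and Cdkn1a in VM cells (−1.1 at adjusted p 1.34e-12). Ccnd1 in VM cells was 887 units with Dox and 2752 without (−1.63 at adjusted p 2.98e-15). Between VIM and VM cells 4 passed with Dox (3 higher, 1 lower) and 3 without (1 and 2), against 19.1% and 21.7% of all genes. The deleted gene Cdkn2a was among the lower in both (−6.95 at adjusted p 1.82e-18 and −7.21 at adjusted p 1.84e-18). Ccnd2 stood out in VIM cells, at 2834 against 73.3 units with Dox (5.26 at adjusted p 1.36e-17) and 5.37 (adjusted p 1.84e-18) without. Cdkn1a (2.12 at adjusted p 2.63e-17) and Cdkn2b (1.13 at adjusted p 1.62e-10) were also higher with Dox, and Cdk6 was lower without it (−1.13 at adjusted p 6.05e-11).

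Targets show where a change in E2F RNA might be read out. Of 30 G1/S genes under E2F control 3 passed in MYC-2983 cells, 17 in VM cells and 23 in VIM cells, all higher, and all 30 had a change above 0 in each line. Of all genes 4.49%, 5.92% and 7.67% passed as higher. This list, like the others, was chosen with earlier results of these data known. The medians of the 30 were 0.64, 1.06 and 1.22, against family medians of 0.25, 0.54 and 0.45. Trimmed-mean scaling gave 5 and 23 targets in MYC-2983 and VM cells. Ung led in each line (1.46 at adjusted p 2.46e-15, 2.39 at adjusted p 1.44e-14 and 2.42 at adjusted p 3.23e-16), with Mcm10 next (1.06 at adjusted p 3.25e-16, 1.71 at adjusted p 1.04e-14 and 1.9 at adjusted p 1.88e-18). Gins1 passed in MYC-2983 cells (1.01 at adjusted p 7.51e-12), Orc1 (1.49 at adjusted p 1.29e-12) and Cdt1 (1.48 at adjusted p 5.83e-14) in VM cells, and Cdt1 (1.75 at adjusted p 5.69e-19) and Cdc6 (1.53 at adjusted p 5.13e-17) in VIM cells. The response differed in 28 of 30 targets between VM and MYC-2983 cells (27 larger), in 30 of 30 between VIM and MYC-2983 cells and in 21 between VIM and VM cells (20 larger). The medians of these differences were 0.45, 0.63 and 0.20, beside −0.08, 0 and 0.09 over genes of at least 50 units, and the shares of all genes that differed were 45%, 42.7% and 35.6%. Between VIM and VM cells directly, 1 target passed with Dox and 2 without, all lower: Ccna2 (−1.21 at adjusted p 1.15e-13 and −1.32 at adjusted p 3.81e-13) and, without Dox, Slbp (−1.12 at adjusted p 1.48e-12). Of all genes 9.45% with Dox and 12.5% without passed as lower.

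Later genes followed. Of 16 G2/M genes 3, 9 and 12 passed in MYC-2983, VM and VIM cells, all higher, with medians of 0.69, 1.07 and 1.20. Of all genes 4.49%, 5.92% and 7.67% passed as higher. Aurkb passed in the 3 lines (1.16 at adjusted p 8.31e-17, 1.46 at adjusted p 3.91e-14 and 1.35 at adjusted p 1.79e-16). Bub1b (1.07 at adjusted p 1.29e-16) and Kif11 (1.05 at adjusted p 6.46e-17) passed in MYC-2983 cells, and Cdc20 in VM (1.4 at adjusted p 1.21e-14) and VIM cells (1.87 at adjusted p 1.95e-20). The responses differed in 10 of 16 between VM and MYC-2983 cells, 14 between VIM and MYC-2983 cells and 9 between VIM and VM cells. Of all genes 45%, 42.7% and 35.6% differed in those pairs. Between VIM and VM cells 0 of 16 passed with Dox by limma (13 at unadjusted p under 0.05) and 1 without, Ccnb1 (−1.01 at adjusted p 7.41e-10).

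Of 8 genes for the PRC1.6 complex partners of E2F6, 1, 1 and 2 passed in the 3 lines, all higher: Pcgf6 in each (1.22 at adjusted p 7.74e-15, 1.16 at adjusted p 2.77e-12 and 1.24 at adjusted p 2.01e-16) and L3mbtl2 in VIM cells (1 at adjusted p 4.66e-15). Of all genes 4.49%, 5.92% and 7.67% passed as higher. The medians of the 8 were 0.59, 0.6 and 0.8. In each line 7 of 8 had an adjusted p under 0.05, against 75.5%, 73.8% and 75.3% of all genes. Hdac1 was lower in VIM than in VM cells, at 49.3 against 415 units with Dox (−3.05 at adjusted p 6.63e-14) and −3.31 (adjusted p 1.33e-13) without. The 4 germline targets of E2F6 (Stag3, Smc1b, Slc25a31 and Tuba3a) summed to 0 to 19.8 units in cell libraries, mostly at or under the floor of 3 reads. With Dox 1, 2 and 1 of them could be tested in MYC-2983, VM and VIM cells, and 0 passed by limma (0, 0 and 0 at unadjusted p under 0.05). Between VIM and VM cells 1 of them passed with Dox and 1 without, both lower and at few reads.

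Marker lists covered other cell types in the cultures. With Dox the renal epithelium list had 2, 3 and 2 of 7 genes lower in MYC-2983, VM and VIM cells, and the proximal tubule list 1 of 4, 2 of 3 and 1 of 3 tested genes lower. Leukocyte genes gave 3 of 5, 4 of 6 and 0 of 6 lower, endothelium genes 0 of 4, 1 of 3 and 0 of 2, and fibroblast genes 5 of 7, 3 of 5 and 2 of 3, all lower. Of all genes 15%, 18.9% and 16.6% passed as lower in the 3 lines. Where limma gave 0, the genes at an unadjusted p under 0.05 were 1 (leukocyte, VIM cells), 1 (endothelium, MYC-2983 cells) and 0 (endothelium, VIM cells). Leukocyte genes summed to 467 to 1391 units in cell libraries and endothelium genes to 0.808 to 15.2. Fibroblast sums averaged 241.6 with Dox and 1035 without in MYC-2983 cells, 93.5 and 679.5 in VM cells, and 61.3 and 223.6 in VIM cells. Whether a share of other cells moved the family in culture was not tested.

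Adult kidney epithelium divides rarely, while tumours hold cycling cells, so the proliferative members were compared between them. Each tumour group was set against the same 5 normal kidneys, so the comparisons share their controls and are given side by side. In MYC tumours, with the libraries of animal 2983 averaged, 4 of 10 members passed (E2f1, E2f3, E2f7 and E2f8), against 37.4% of 16491 genes (18.8% higher, 18.6% lower). VM tumours gave the same 4 and E2f4, 5 of 10, against 39.8% of 16521 (17.3% higher, 22.5% lower). VIM tumours gave E2f1, E2f2, E2f7 and E2f8, 4 of 10, against 39.6% of 16569 (18.9% higher, 20.7% lower). All that passed were higher in the tumours. In 6, 5 and 5 of 10 members the tumour values did not overlap those of the kidneys, as in 51%, 50.9% and 48.4% of genes. The median gene of at least 50 units changed by 0.07, −0.01 and 0.02.

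E2f1 was higher in each kind of tumour. Normal kidneys B61, KT2, B62, KT1 and KT3 read 38.1, 77.4, 30.8, 63.5 and 36.7 units. MYC tumours read 237, 122 and 246, VM tumours 248, 400 and 672 and VIM tumours 156, 311 and 138. All 9 tumour libraries exceeded all 5 kidneys. Log2 changes were 2.11 (adjusted p 0.00392), 3.1 (adjusted p 0.000169) and 2 (adjusted p 0.00264) in MYC, VM and VIM tumours. E2f3 read 518, 856 and 679 in MYC tumours, 324, 602 and 603 in VM tumours, 354, 545 and 231 in VIM tumours and 164, 249.6, 159, 257 and 156 in the kidneys. Animal 3130's VIM tumour alone lay within the kidney range. E2f3 rose in MYC tumours (1.7 at adjusted p 0.00154) and VM tumours (1.35 at adjusted p 0.00271). In VIM tumours it was under the size threshold (0.88 at adjusted p 0.039). Without animal 3130 it passed at 1.19, and with 1 library left out it ran from 0.57 to 1.19.

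E2f2 varied more between animals. MYC tumours read 103, 105 and 171 units, VM tumours 39.95, 305 and 142 and VIM tumours 160.1, 222 and 112. The kidneys read 77.8, 84.7, 40.2, 119 and 48.1. Kidney KT1 exceeded 4 of the 9 tumour libraries, and ranges overlapped for each tumour kind. E2f2 passed in VIM tumours (1.2 at adjusted p 0.0323) but not in MYC tumours (0.76 at adjusted p 0.189) or VM tumours (0.8 at adjusted p 0.296), and no difference between tumour kinds passed (VIM minus VM 0.39 at adjusted p 0.857). The VIM call did not hold without VIM tumour 3237 (1.19), 3233 (0.95), kidney B62 (1.01) or KT3 (1.07), nor against the KT kidneys alone (1) or the B6 kidneys alone (1.48). It was also lost with no expression filter (adjusted p 0.0629) and with all tissue in 1 fit (adjusted p 0.0982). In VM tumours E2f2 passed without animal 3115 (1.59), but with 1 library left out its change ran from 0.14 to 1.59. KT1 and KT2 read more E2f1, E2f2 and E2f3 than the 3 other kidneys. What the B6 and KT titles stand for is not given.

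E2f4 was higher in tumours without overlap. MYC tumours read 698, 843 and 823 units, VM tumours 668, 746 and 1012 and VIM tumours 604, 808 and 494, against 391, 379.6, 424, 375 and 407 in the kidneys. The changes were 0.95 (adjusted p 0.000876), 1.01 (adjusted p 0.000498) and 0.66 (adjusted p 0.0134), so E2f4 passed in VM tumours and not in the others. That call did not hold without VM tumour 2459 (0.84), without kidney KT2 (1) or KT1 (0.99), against the B6 kidneys alone (0.97) or with a pseudocount of 10 (0.99). Without animal 2917 the MYC tumour value was 1.07, past the threshold, but that fit holds animal 2983 alone and takes its spread from the kidneys. VM and MYC tumours differed by 0.06 (adjusted p 0.958) in E2f4.

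E2f5 and E2f6 overlapped the kidneys in each tumour kind. E2f5 read 712, 503 and 634 units in MYC tumours, 803, 646 and 867 in VM tumours, 893, 548 and 652 in VIM tumours and 971, 838, 892, 899 and 643 in the kidneys. Its changes were −0.41 (adjusted p 0.101), −0.13 (adjusted p 0.529) and −0.3 (adjusted p 0.24). E2f6 averaged 575 units in VM tumours and 479 in the kidneys. The E2f6 changes were −0.09 (adjusted p 0.736), 0.27 (adjusted p 0.214) and 0.02 (adjusted p 0.928) in MYC, VM and VIM tumours. The sign for MYC tumours turned against the KT kidneys alone (0.04), and that for VIM tumours under trimmed-mean scaling and quantile normalization (−0.02 in both).

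The atypical members had the largest changes between tumour and kidney with a pseudocount of 1, though with 10 E2f7 in VM tumours (2.21) was under E2f1 (2.87). E2f8 read 6.92, 5.84, 9.37, 8.14 and 3.79 units in the kidneys. MYC tumours read 134, 119 and 477, VM tumours 65.2, 181 and 309.5 and VIM tumours 60.3, 164 and 71.6. The lowest tumour stood well above the highest kidney. Log2 changes were 4.57 (adjusted p 0.000135), 4.36 (adjusted p 0.000103) and 3.58 (adjusted p 0.000159), with 95% intervals of 3.5 to 5.65, 3.15 to 5.58 and 2.55 to 4.61. With a pseudocount of 10 the changes were 3.51, 3.32 and 2.58.

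E2f7 was near the floor in the kidneys, at 0, 7.30, 0, 6.51 and 3.79 units, or 0, 5, 0, 4 and 3 estimated reads. MYC tumours read 86.8, 97.2 and 194 units, VM tumours 19.97, 49.5 and 116 and VIM tumours 32.02, 73.9 and 29.4. Again no tumour overlapped a kidney. The fitted changes were 5.14 (adjusted p 0.00287), 3.99 (adjusted p 0.00397) and 3.75 (adjusted p 0.00398). With so few kidney reads the size depended on the pseudocount: 6.58, 5.42 and 5.18 with 0.1, and 3.18, 2.21 and 1.98 with 10. In both B6 kidneys E2f7 was listed at 0, and against the KT kidneys alone the changes were 4.04, 2.90 and 2.66. E2f7 passed in each of these settings.

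Rb1 tended to be lower in tumours. The kidneys read 701, 901, 744, 876 and 1383 units. MYC tumours read 497, 531 and 773, VM tumours 578, 703 and 456 and VIM tumours 415, 536 and 448. VIM tumours lay wholly under the kidneys, and 1 tumour of each other kind reached into their range. The changes were −0.66 (adjusted p 0.0631), −0.65 (adjusted p 0.0389) and −0.94 (adjusted p 0.00621), none past 2-fold. For VIM tumours Rb1 passed without animal 3233 (−1.05), without kidney B61 (−1.03) or B62 (−1.01), and against the KT kidneys alone (−1.15). Rbl1 read 334, 321 and 627 units in MYC tumours, 168, 367 and 454 in VM tumours, 164, 274 and 147 in VIM tumours and 222, 256, 230.3, 277 and 314 in the kidneys. Its changes were 0.59 (adjusted p 0.0445) without overlap, and 0.24 (adjusted p 0.54) and −0.45 (adjusted p 0.157) with overlap. Without VM tumour 3115 the VM value was 0.66. Rbl2 was 1454, 1379 and 1330 units in MYC, VM and VIM tumours against 2041 in kidney (−0.43 at adjusted p 0.052, −0.59 at adjusted p 0.00936 and −0.67 at adjusted p 0.0174).

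**Figure D3:**
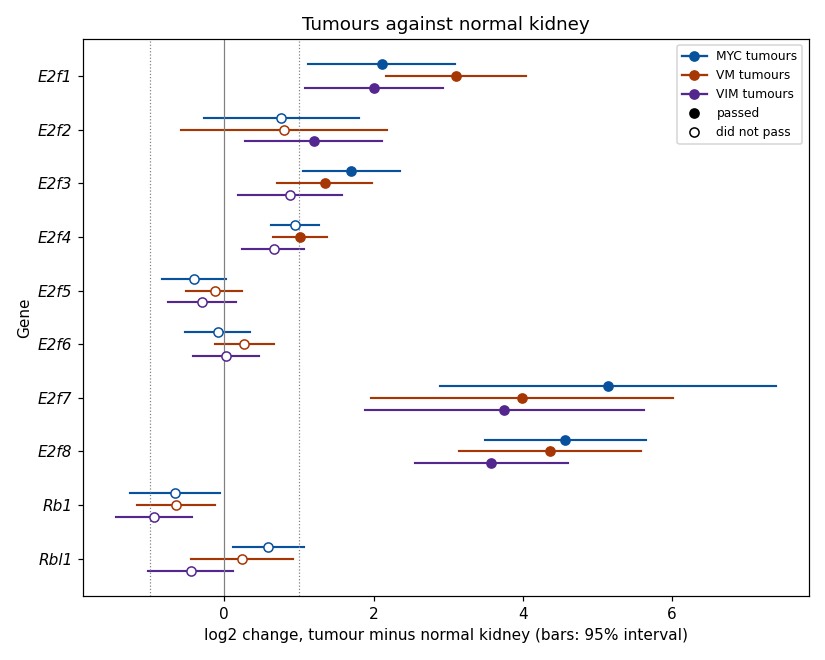
Change of each member in tumours (log2, tumour minus the same 5 normal kidneys, points; bars, 95% interval) for MYC tumours (2 animals, the libraries of 2983 averaged), VM tumours and VIM tumours (3 animals each). E2f7 (5.14, 3.99 and 3.75) and E2f8 (4.57, 4.36 and 3.58) lie furthest to the right, and filled points passed.

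Of the 10 partners 5 passed in each tumour kind, 4 higher and 1 lower, against 37.4%, 39.8% and 39.6% of all genes, and the list's medians were 0.37, 0.51 and 0.4. Foxm1 rose by 4.3 (adjusted p 3.51e-05), 3.91 (adjusted p 1.58e-05) and 3.28 (adjusted p 6.11e-05) in MYC, VM and VIM tumours, and Mybl2 by 4.06 (adjusted p 0.000341), 4.05 (adjusted p 0.000214) and 3.76 (adjusted p 0.000578). Tfdp1 rose by 2.76 (adjusted p 6.13e-06), 3.18 (adjusted p 1.24e-07) and 3.02 (adjusted p 1.11e-06). Lin9 passed in MYC tumours (1.6 at adjusted p 0.000559). Lin52 was lower in VM (−1.91 at adjusted p 2.75e-05) and VIM tumours (−1.45 at adjusted p 0.00174). Of the 8 E2F6 complex genes 3, 3 and 4 passed in MYC, VM and VIM tumours, among them Pcgf6 (1.66 at adjusted p 6.94e-05, 1.54 at adjusted p 0.00119 and 2 at adjusted p 9.54e-06) and Max (1.27 at adjusted p 0.000196, 1.33 at adjusted p 1.73e-05 and 1.23 at adjusted p 8.81e-05). Mga was higher in MYC and VM tumours (1.44 at adjusted p 0.000822 and 1.24 at adjusted p 8.99e-05), and Hdac1 lower in VIM tumours (−2.39 at adjusted p 5.87e-05). Of the germline targets of E2F6 3 could be tested in each kind, and 0 passed by limma, with 0 at an unadjusted p under 0.05.

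Against normal kidney 37.4%, 39.8% and 39.6% of all genes passed in MYC, VM and VIM tumours. Of 16 kinase and inhibitor genes 13 passed in MYC tumours (11 higher, 2 lower), 10 in VM tumours (8 and 2) and 10 in VIM tumours (8 and 2). These include the engineered gene Cdkn2a, higher by 6.75, 10.97 and 4.57 (adjusted p 0.000265, 4.41e-07 and 0.000297) against kidneys at or near 0, and in VIM tumours at a mean of 53.1 units. Ccne1 (5.08 at adjusted p 0.000236, 6.47 at adjusted p 7.95e-06 and 6.11 at adjusted p 9.96e-06) and Cdkn2b (5.6 at adjusted p 7.06e-05, 6.07 at adjusted p 3.63e-06 and 6.87 at adjusted p 3.84e-06) had large rises. Cdk4, the target of Ink4a, rose by 2.23 (adjusted p 3.09e-05), 2.31 (adjusted p 2.01e-06) and 2.15 (adjusted p 2.55e-05). Cdkn1a rose by 1.97 (adjusted p 0.0142), 2.67 (adjusted p 0.0236) and 4.08 (adjusted p 9.99e-06). Ccnd1 was lower in each kind: −1.38 (adjusted p 0.0345), −3.99 (adjusted p 0.000275) and −1.66 (adjusted p 0.00182).

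The shares of all genes that passed were 37.4%, 39.8% and 39.6% in MYC, VM and VIM tumours. Of the 30 G1/S targets 30 passed in MYC tumours, 28 in VM tumours and 26 in VIM tumours, most but not all of them higher. Their medians were 3.61, 2.84 and 3.04, against 0.86, 0.91 and 0.77 for the family. Hells (6.01 at adjusted p 3.27e-05, 5.15 at adjusted p 0.000145 and 5.13 at adjusted p 1.88e-05) and Orc1 (5.78 at adjusted p 0.000254, 5.26 at adjusted p 0.000162 and 5.34 at adjusted p 6.97e-05) led. All 16 G2/M genes passed in each kind, with medians of 5.63, 5.57 and 5.07, Bub1 (6.36 at adjusted p 2.75e-05, 6.38 at adjusted p 3.73e-06 and 5.93 at adjusted p 2.75e-06) among the highest. Summed, the G1/S targets came to 28120, 25680 and 42030 units in MYC tumours 2917, 2983 and 2983. The sums were 13010, 26890 and 36390 in VM tumours 3115, 3055 and 2459, and 18180, 28600 and 16850 in VIM tumours 3237, 3233 and 3130, against 5462 to 5817 in the kidneys. E2f1, E2f7 and E2f8 ranked the VM tumours in that same order and were highest in VIM tumour 3233. They did not all follow the sums elsewhere: E2f7 in MYC tumours and E2f8 in the other VIM tumours ran in another order.

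Whole-tumour RNA mixes cell types, and the kidneys are rich in proximal tubule. Beside the marker counts, 37.4%, 39.8% and 39.6% of all genes passed in MYC, VM and VIM tumours. All 6 proximal tubule markers were lower in each tumour kind, with medians of −6.39, −7.23 and −6.30, and their sum was 1773 to 10510 units in tumours (Lrp2 most abundant) against 197800 to 232400 in kidneys (Slc34a1). Renal epithelium markers passed in 4 of 7 (2 higher, 2 lower), 5 (1 and 4) and 6 (2 and 4), with Cdh16 the most abundant in every group. Leukocyte markers passed in 4 of 8 (all higher), 6 (4 and 2) and 5 (4 and 1). They summed to 18000, 5048 and 4953 units in MYC tumours, 9570, 3739 and 4630 in VM tumours and 15210, 8425 and 8266 in VIM tumours, against 1367 to 2349 in kidneys, with Lyz2 most abundant in tumours and Csf1r in kidneys. Of the 8 leukocyte markers 6 to 7 were above the floor in a tumour and 6 to 8 in a kidney. Endothelium markers were lower in 5, 4 and 5 of 6 (1 higher in VIM tumours), with sums of 199 to 2031 units against 3266 to 5600. Fibroblast markers passed in 3 of 7 (1 higher, 2 lower), 4 (lower) and 2 (lower), with sums of 562 to 8739 against 1311 to 4287. The libraries of animal 2983 differed here, at 8739 and 821. The part of this mixture in the family's values was not tested.

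Comparing tumours with one another asks what Vhl or Ink4a/Arf loss adds in tissue, where every animal was on Dox. By limma 0 of 10 members passed between VM and MYC tumours, against 0.0963% of 16607 genes (0.0301% higher, 0.0662% lower). Between VIM and MYC tumours 0 of 10 passed, against 0% of genes (0% higher, 0% lower). Between VIM and VM tumours 0 of 10 passed, against 0.205% (0.163% higher, 0.0422% lower). At an unadjusted p under 0.05 the counts were 0, 0 and 1 of 10 members, against 1820, 2756 and 1895 genes, and 0 members passed in any alternative. The 1 member at p under 0.05 was E2f1, lower in VIM than in VM tumours by log2 −1.1 (p 0.0402, adjusted p 0.41), with overlapping values.

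Some members were apart in range without passing: 2, 2 and 0 of 10 for VM against MYC, VIM against MYC and VIM against VM tumours. Of all genes 22.1%, 24.6% and 15.3% were apart in those pairs, so the members' counts were no higher than that share. E2f1 (1 at adjusted p 0.52) and E2f6 (0.36 at adjusted p 0.671) were higher in every VM tumour than in every MYC tumour. For E2f1 the lowest VM tumour read 247.7 units and the highest MYC tumour 245.8. E2f7 (−1.38 at adjusted p 0.419) and Rbl1 (−1.04 at adjusted p 0.323) were lower in every VIM tumour than in every MYC tumour. No member was apart between VIM and VM tumours. E2f8 was −1 (adjusted p 0.506) between VIM and MYC tumours and −0.78 (adjusted p 0.687) between VIM and VM tumours. The intervals were wide, −3.24 to 0.47 for E2f7 between VIM and MYC tumours and −0.64 to 0.67 for Rb1 between VM and MYC tumours. Of the lists, 0 of the 30 G1/S targets passed in any pair (0, 2 and 1 at an unadjusted p under 0.05 by limma for VM against MYC, VIM against MYC and VIM against VM), 0 of the 16 G2/M genes did (0 at unadjusted p under 0.05 in each), and 1 kinase or inhibitor passed, Cdkn2a, between VIM and VM tumours (−6.4 at adjusted p 0.00854), the gene deleted in VIM mice.

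Cells and tissue were compared by level only, since culture and library set differ. E2f7 read 328 to 663 units in cell libraries and 19.97 to 194 in tumours, so no tumour reached the lowest cell library. E2f8 read 239.7 to 723 in cells and 60.3 to 477 in tumours. E2f5 ran the other way, at 143 to 448 units in cells and 503 to 893 in tumours. E2f4 was 889 to 1579 in cells and 494 to 1012 in tumours. E2f6 overlapped, at 443 to 659 in cells and 388 to 636 in tumours. VIM cells held the least E2f5 of all groups, while VIM tumours did not stand below the other tumours.

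Members that moved together across the 10 group means (Pearson r of log2 levels, a description over 10 points that share lines and animals) were E2f3 and E2f8 (0.97), E2f7 and E2f8 (0.97) and E2f3 and E2f4 (0.96). E2f3 and E2f7, E2f4 and E2f7, and E2f4 and E2f8 followed at 0.95 each, and E2f1 and E2f8 at 0.94. E2f5 ran against E2f7 (−0.75), and Rb1 against E2f4 (−0.81) and E2f2 (−0.80). Among 13354 genes with at least 50 units in a group, those closest to E2f8 were Smc2 (0.998), Polq (0.998), Clspn (0.997), Top2a (0.993) and Cenpe (0.993). Closest to E2f1 were Med19 (0.984), Zfp428 (0.981), 6230409E13Rik (0.978), Myef2 (0.977) and Zic2 (0.974). Rb1 had Atp6ap2 (0.967), Wdr78 (0.966), Tpp1 (0.951), Mtm1 (0.95) and Pcmtd1 (0.95).

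E2F genes are in part controlled by E2F sites in their own promoters, and MYC binds E-boxes. Promoter windows of 300 bases (250 before the start and 50 after, RefSeq starts, GRCm38.p6) were searched on both strands for the E2F sites TTTGGCGC, TTTCCCGC and TTTGGCGG and the E-box CACGTG. Of the 10 members 7 had an entry, with 9 windows, and E2f4, E2f5 and Rb1 had none. An E2F site lay in 3 of the 7 (E2f2, E2f3 and E2f7), and the second window of E2f3, whose start lies 1673 bases downstream of the gene's 5′ end, held an E-box 24 bases before that start. Among 32851 promoters 2.1% held any of the E2F sites (TTTGGCGC 0.514%, TTTCCCGC 1.07%, TTTGGCGG 0.56%) and 7.15% the E-box. The transcript starts used for E2f1 and E2f8 lie 466 and 477 bases downstream of the 5′ end of the gene, so those windows did not reach it. Capitals mark the sites, and a match is a description of sequence, not of binding.
E2f2 (chr4:136172294-136172323, plus strand, positions 21 to 50 after the start): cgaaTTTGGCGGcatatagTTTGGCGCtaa
E2f3 (chr13:29986064-29986123, minus strand, positions −60 to −1): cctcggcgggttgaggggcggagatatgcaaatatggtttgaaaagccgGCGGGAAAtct
E2f7 (chr10:110745211-110745270, plus strand, positions −228 to −169): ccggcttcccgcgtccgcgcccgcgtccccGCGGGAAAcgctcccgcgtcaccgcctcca
In E2f3 and E2f7 the capitals are TTTCCCGC read on the other strand.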

How the data were processed

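RNA of 38 libraries in 10 groups was sequenced: 3 mouse kidney tumour cell lines with and without Dox (4 replicates each), 9 tumour libraries from 8 animals and 5 normal kidneys. The authors aligned reads to mm9 with MapSplice, processed them with SAMtools and Picard 1.64, estimated gene levels with RSEM and set the upper quartile of every library to 1000. The deposited unit is normalised signal, called units here, not read counts. A single read was worth the smallest regular step between values, which put 94.1 to 95.9% of low values within 0.02 of a whole number of reads. Estimated depth ran from 8.22 to 36.58 M reads, with group medians of 25.61 and 24.76 M in MYC-2983 cells with and without Dox, 14.9 and 17.38 in VM cells, 18.76 and 14.26 in VIM cells, 9.59 in MYC tumours, 11.83 in VM tumours, 9.9 in VIM tumours and 13.38 in normal kidney. The floor of 3 reads therefore lay at 1.16 to 5.65 units.

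Values were taken to log2 after adding 1 and fitted with limma 3.58.1 in R 4.3.3 (empirical Bayes with a mean trend, two-sided, Benjamini-Hochberg over all genes tested). Genes above 0 in at least 4 cell libraries or 2 tissue libraries were tested. A gene passed at an adjusted p under 0.05 and more than 2-fold, and differences between Dox responses at an adjusted p under 0.05 alone. The libraries of animal 2983 were averaged. There were 14 comparisons: 3 Dox effects, 3 differences between them, VIM against VM cells with and without Dox, each tumour kind against normal kidney, and 3 tumour pairs. MYC-2983 cells against the other lines, and cells against tissue, were compared by level without a test. Alternatives were adding 0.1 or 10 in place of 1, testing genes without a filter or with an average of 10 units or more, trimmed-mean scaling (trims of 30 and 5%), quantile normalization, voom on estimated reads, a replicate block, VM and VIM cells alone, all tissue in 1 fit, each library counted, B6 or KT kidneys alone, and each library left out. Levels per kb used exonic lengths from an mm9 annotation, and promoters came from RefSeq on GRCm38.p6. Python 3.11.15, pandas 2.3.3, numpy 2.4.6 and matplotlib 3.10.9 made tables and plots.

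Members and gene lists (partners and MuvB, RB kinases and inhibitors, G1/S targets, G2/M genes, E2F6 complex, its germline targets, and markers of renal epithelium, proximal tubule, leukocytes, endothelium and fibroblasts) were chosen with earlier results of these data known. Besides the members, up to 4 genes per list and comparison were named, those with the largest change among genes that passed with at least 50 units in the higher group, plus genes needed to state what did not pass. No library was left out. No test of a whole list was run.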

Additional observations from a re-analysis of the deposited data

Results flagged for a closer look

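In 3 of the 70 member and group combinations with 4 or 5 libraries, 1 library lay apart from the others by more than Dixon's 95% critical value. They were E2f6 in VM cells without Dox (replicate 2, 494.4 units), E2f8 in MYC-2983 cells with Dox (replicate 3, 711.9) and Rb1 in VM cells with Dox (replicate 4, 343.9). Chance gives about 1 in 20 groups, so 3 of 70 is no more than chance gives.

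The change with Dox differed between lines in 16 tests of the difference itself by limma. VIM minus VM cells gave 0.34 for E2f2, −0.25 for E2f7, 0.48 for Rb1 and 0.19 for Rbl1. VM minus MYC-2983 cells gave 0.21 for E2f1, −0.50 for E2f2, 0.24 for E2f3, 0.25 for E2f6, 0.63 for E2f7, 0.25 for E2f8 and −0.77 for Rb1. VIM minus MYC-2983 cells gave 0.21 for E2f1, 0.17 for E2f3, 0.38 for E2f7, 0.36 for E2f8 and −0.28 for Rb1. Each line is 1 tumour, so these are differences between lines.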

How the results depend on the processing

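Of 1180 values of members under another setting 1137 kept their call and direction, 16 lost the call, 18 gained one and 9 changed sign. With 1 library left out, 1228 of 1300 kept both, 22 lost the call, 18 gained one and 32 changed sign. The voom alternative and the fit to VM and VIM cells alone were added after the data were seen.

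These counts moved by more than 1.5 times. With Dox in VM cells 1 of 10 passed, 2 under trimmed-mean scaling and 3 under quantile normalization. G1/S targets in MYC-2983 cells went from 3 to 5 under trimmed-mean scaling. The difference between VIM and VM responses went from 4 members to 2 with a replicate block fitted to VM and VIM cells alone, where E2f2 had an adjusted p of 0.124 and Rbl1 of 0.0653. It was 3 in those cells without the block. That between VIM and MYC-2983 cells went from 5 to 9 under trimmed-mean scaling. With 1 replicate left out the VIM Dox count ran from 1 to 2 and the VIM minus VM count from 2 to 4. Smaller moves with 1 library left out were 4 to 5 for MYC tumours (5 with animal 2983 alone, the spread coming from the kidneys), 4 to 6 for VM tumours, 3 to 5 for VIM tumours, 7 to 8 for VM minus MYC-2983 and 5 to 7 for VIM minus MYC-2983 cells.

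These values changed sign with a setting. E2f6 in MYC tumours was 0.04 against KT kidneys alone, and E2f6 in VIM tumours −0.02 under trimmed-mean scaling and under quantile normalization and −0.17 against B6 kidneys alone. Trimmed-mean scaling gave Rbl1 0.05 for VM minus MYC-2983 cells. Quantile normalization gave E2f8 0.06 for VM against MYC tumours and E2f1 0.15 for VIM against MYC tumours. Counting each library gave E2f2 −0.03 and Rb1 −0.05 for VM against MYC tumours. With quantile normalization Vhl was 0.20 and Cdkn2a 0.42 with Dox in VIM cells, and for VIM minus MYC-2983 cells Vhl was 0.35 and Cdkn2a 0.47. The latter Cdkn2a value was 0.03 with a pseudocount of 10 and 0.06 under trimmed-mean scaling.

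Leaving out 1 library turned the sign of the values that follow, not all of them near 0. Without animal 2917, animal 2983 alone stands for MYC tumours and is assumed to vary like the other group or groups in the fit. For VIM minus VM responses E2f1 ran from −0.04 to 0.04, E2f4 from −0.03 to 0.03 and E2f5 from −0.03 to 0.06. Against normal kidney Rbl1 in VM tumours ran from −0.05 to 0.66 and E2f6 in VIM tumours from −0.08 to 0.18. For VM against MYC tumours E2f2 ran from −0.63 to 0.82, E2f4 from −0.11 to 0.19, E2f8 from −0.71 to 0.40, Rb1 from −0.17 to 0.18 and Rbl1 from −0.64 to 0.08. For VIM against MYC tumours E2f1 ran from −0.46 to 0.15, E2f5 from −0.09 to 0.27 and Myc from −0.05 to 0.57. For VIM against VM tumours E2f2 ran from −0.39 to 1.06 and E2f7 from −0.86 to 0.37. For VIM minus MYC-2983 responses Cdkn2a ran from −0.09 to 0.08 and Vhl from −0.37 to 0.07. For VIM against VM cells with Dox Myc ran from −0.07 to 0.03 and Vhl from −0.25 to 0.10.

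Scaling moved the split of all genes that passed. With Dox MYC-2983 cells had 678 higher and 2264 lower genes (1073 and 1480 under quantile normalization), VM cells 847 and 2707 (1277 and 2094 under trimmed-mean scaling, 1490 and 1591 under quantile normalization) and VIM cells 1074 and 2322 (1406 and 1901, 1529 and 1572). Differences between responses split 3914 to 1814 for VIM minus VM (2951 to 2377 under quantile normalization), 2742 to 4498 for VM minus MYC-2983 and 3487 to 3386 for VIM minus MYC-2983 (3602 to 3561 and 4409 to 2705 under trimmed-mean scaling). A pseudocount of 10 lowered the totals from 2942 to 1936 in MYC-2983 cells, from 2691 to 1653 for VIM against VM cells with Dox and from 3141 to 1981 without. Tumour pairs gave 16, 0 and 34 genes, or 337, 669 and 477 with all tissue in 1 fit. The cause was not tested.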

Other observations

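The libraries of animal 2983 differed in E2f8 (119 and 477 units), E2f7 (97.2 and 194) and Rbl1 (321 and 627) as well as in Cdkn2a (2872 and 59.3). Whether both came from 1 tumour is not given. Cells of 1 line per genotype cannot show an effect of Vhl or Ink4a/Arf apart from the line. Dox without the transgene was not measured in cells, and the normal kidneys had vehicle. Tumour RNA holds an unknown share of other cells. RNA does not give protein or phosphorylation, through which pocket proteins are controlled.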
